A study of Mus musculus with 11 samples.

Results

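Spo11, Morc2b and Stra8 are 3 mouse genes known for their roles in meiosis, described here in nascent RNA of embryonic stem cells. They were chosen by their exon reads in the same libraries, because Spo11 and Morc2b were higher and Stra8 lower in the cells given an siRNA against Zc3h4. They are 3 of the 13088 genes in the exon-based table. Because this contrast chose them, their levels and folds are given as a description, with no test.

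Nascent RNA was labelled with 4-thiouridine, a nucleoside that cells build into new RNA, at 500 µM for 20 min and then sequenced (TT-seq). The cells were F121-9, an established female mouse embryonic stem cell line from a cross of the CAST and 129 strains, wild type in genotype and kept in serum-free medium with LIF and inhibitors of MEK and GSK3. The groups were cells transfected with 30 nM siRNA against Zc3h4 (siZC3H4, n = 2, replicates 2 and 3) and cells transfected with 30 nM non-targeting siRNA (siNT, n = 3, replicates 1, 2 and 3), each harvested 47 h after transfection. The series also holds 3 DMSO and 3 dTAG samples of clones with an FKBP12F36V tag on ZC3H4, which were not analysed here. The labels do not say that replicates came from separate cultures, so p-values measure the spread between these samples, which may be technical.

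SPO11 is the topoisomerase-like protein that cuts DNA to begin meiotic recombination. STRA8 is a germ cell protein induced by retinoic acid that, together with MEIOSIN, switches on the genes of meiotic entry. MORC2B belongs to the MORC family of ATPases and is needed for meiotic prophase in the mouse, and its relative MORC2A works with the HUSH complex in silencing in many cell types. In embryonic stem cells many germline genes are held low by DNA methylation, by SETDB1 and by the polycomb complex PRC1.6, which contains MGA, MAX, E2F6, L3MBTL2 and PCGF6. ZC3H4 is a zinc finger protein that works with WDR82 to stop transcription of short noncoding RNAs, among them the upstream antisense RNAs (uaRNAs) made in the opposite direction from promoters.

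Values are depth-normalised reads, which is whole reads divided by a factor per library. Recovered whole reads over exons came to 26548710 and 16173640 in the libraries labelled siZC3H4, against 14840637, 17563244 and 18479834 in the siNT libraries. Exon reads of Zc3h4, the gene that the siRNA targets, were 7285 and 6718 in the libraries labelled siZC3H4, against 3465, 3610 and 3363 in the siNT libraries. Zc3h4 thus rose 2.01-fold (log2 1.01 ± 0.11 SE, limma adjusted p = 0.00431), which goes against the label, and every direction below is that of the libraries as labelled. Nascent exon reads are not the level of the mature mRNA on which an siRNA acts, and neither the depletion of Zc3h4 mRNA nor an exchange of labels was tested. This call of Zc3h4 was lost when siZC3H4 replicate 2 was left out (limma adjusted p = 0.0578) and when siNT replicate 1 was (limma adjusted p = 0.0549). Among 12482 genes with a mean of at least 10 reads, 277 rose (2.22%) and 18 fell (0.144%) in limma with Benjamini-Hochberg adjustment at 0.05, and the median log2 difference was 0.01. Both siZC3H4 libraries lay above every siNT library for 19.5% of these genes and below every one for 12.8%, and among the members the first holds for Spo11 and Morc2b and the second for Stra8. In these bulk samples, more or fewer cells making an RNA and more or less RNA per cell cannot be told apart.

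A promoter window of Stra8 and a promoter window of Morc2b are shown because both hold AGGTCA, the nuclear receptor core motif. Nuclear receptors share this motif, retinoic acid receptors among them, and it was searched as single copies. The promoter source used here has no entry for Spo11, so no Spo11 window was searched for any motif. RefSeq gives another Morc2b start, 9192 bases upstream of the start in the authors' table, and its window holds no match and is not printed. Each is the 250 bases before a RefSeq start in GRCm38, printed 5′ to 3′ on the gene's strand, with capitals marking AGGTCA or its reverse complement TGACCT. The Stra8 window is chr6:34920698-34920947 (plus strand) and ends at the start that the authors' table gives. The Morc2b window printed, that of the nearer start, is chr17:33139684-33139933 (minus strand) and its RefSeq start is 126 bases upstream of the start in that table.
Stra8: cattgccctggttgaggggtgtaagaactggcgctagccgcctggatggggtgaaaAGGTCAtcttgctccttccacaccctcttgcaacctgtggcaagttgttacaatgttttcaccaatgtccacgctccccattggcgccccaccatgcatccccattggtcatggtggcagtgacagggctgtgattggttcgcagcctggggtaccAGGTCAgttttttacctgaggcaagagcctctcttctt
Morc2b: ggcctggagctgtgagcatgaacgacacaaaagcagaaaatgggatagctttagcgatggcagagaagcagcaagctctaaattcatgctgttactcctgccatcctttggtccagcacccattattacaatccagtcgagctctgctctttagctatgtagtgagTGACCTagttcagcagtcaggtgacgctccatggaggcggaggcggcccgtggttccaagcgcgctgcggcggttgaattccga

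The Stra8 window holds the motif 2 times, with the matches lying 194 and 38 bases before the start. The printed Morc2b window holds it 1 time, 84 bases before the start and in the reverse orientation, and the window of the other Morc2b start holds it 0 times. AGGTCA was found on either strand in 14% of 32851 RefSeq promoter windows of this length. The E-box CACGTG (6.02% of windows), the E2F core GCGGGA (16.9%) and CNCCTCAG, the STRA8-MEIOSIN motif (6.42%), had no match in these 3 windows. These counts describe letters in the windows and not binding.

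Spo11 (ENSMUSG00000005883) lies on the plus strand at chr2:172979855-172993576 in mm10, a span of 13722 bases with a transcript of 1577 bases. It had 24.3 and 20.1 normalised reads in the libraries labelled siZC3H4, against 3, 2.61 and 0.853 in the siNT libraries. The groups did not overlap, and the lower siZC3H4 library was 6.69 times the highest siNT library. The means were 22.2 ± 3.01 (SD, n = 2) in siZC3H4 and 2.15 ± 1.14 (SD, n = 3) in siNT, a log2 difference of 2.95 ± 0.52 SE or 7.73-fold on the log2(value + 1) scale. The ratio of the means, with no pseudocount, was 10.3. Only 1 tested gene had a higher log2 difference.

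Few reads stand behind Spo11, with 43 and 21 whole reads in the siZC3H4 libraries and 3, 3 and 1 in the siNT libraries. Summed and set against the summed depth factors, 64 reads in siZC3H4 and 7 in siNT gave a ratio of 10.8, with an exact 95% counting interval of 4.95 to 27.9. Such intervals, here and below, cover counting error only and not the spread between libraries. They also leave out that these same values chose the genes, so they are a description and no test. Spo11 averaged 10.2 over the 5 libraries, just above the minimum of 10, and it reached that minimum only through the siZC3H4 libraries.

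Morc2b (ENSMUSG00000048602) lies on the minus strand at chr17:33135590-33139557, a span of 3968 bases with a transcript of 3584 bases. Its exon reads were 36.8 and 42.1 in the libraries labelled siZC3H4, against 6, 2.61 and 11.9 in the siNT libraries. Both siZC3H4 libraries were above every siNT library, the lower of them 3.08 times the highest siNT library. Morc2b averaged 39.4 ± 3.73 in siZC3H4 (SD, n = 2) and 6.85 ± 4.73 in siNT (SD, n = 3), a log2 difference of 2.55 ± 0.54 SE. Pooled whole reads were 109 in siZC3H4 and 23 in siNT, a depth-adjusted ratio of 5.60 (exact 95% counting interval 3.55 to 9.20). The siNT libraries differed among themselves by 4.58-fold, and their SD on the log2 scale, 0.92, was larger than that of 99.4% of tested genes. Morc2b too passed the minimum only through the siZC3H4 libraries, and 7 tested genes had a higher log2 difference.

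Stra8 (ENSMUSG00000029848) lies on the plus strand at chr6:34920948-34939342, a span of 18395 bases with a transcript of 1269 bases. Its normalised reads were 20.9 and 32.5 in the libraries labelled siZC3H4, against 291, 69.6 and 164 in the siNT libraries. Every siNT library lay above both siZC3H4 libraries, and the lowest siNT library was 2.14 times the higher siZC3H4 library. The means were 26.7 ± 8.18 in siZC3H4 (SD, n = 2) and 175 ± 111 in siNT (SD, n = 3), a log2 difference of -2.47 ± 0.51 SE, and no tested gene had a lower one. Whole reads were 37 and 34 in siZC3H4 and 291, 80 and 192 in siNT, and the pooled ratio of siZC3H4 to siNT was 0.149 (exact 95% counting interval 0.115 to 0.191).

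The siNT libraries of Stra8 spread 4.18-fold, with replicate 1 highest and replicate 2 lowest. Their SD on the log2 scale was 1.03, larger than that of 99.7% of tested genes. Without siNT replicate 1 the log2 difference of Stra8 was -1.99, and over the 5 fits that each left out 1 library it ran from -3.02 to -1.99. The same range was 2.60 to 3.16 for Spo11 and 2.08 to 3.00 for Morc2b. The signs could not change in these fits, because each member's groups do not overlap whichever library is left out.

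**Figure D1:**
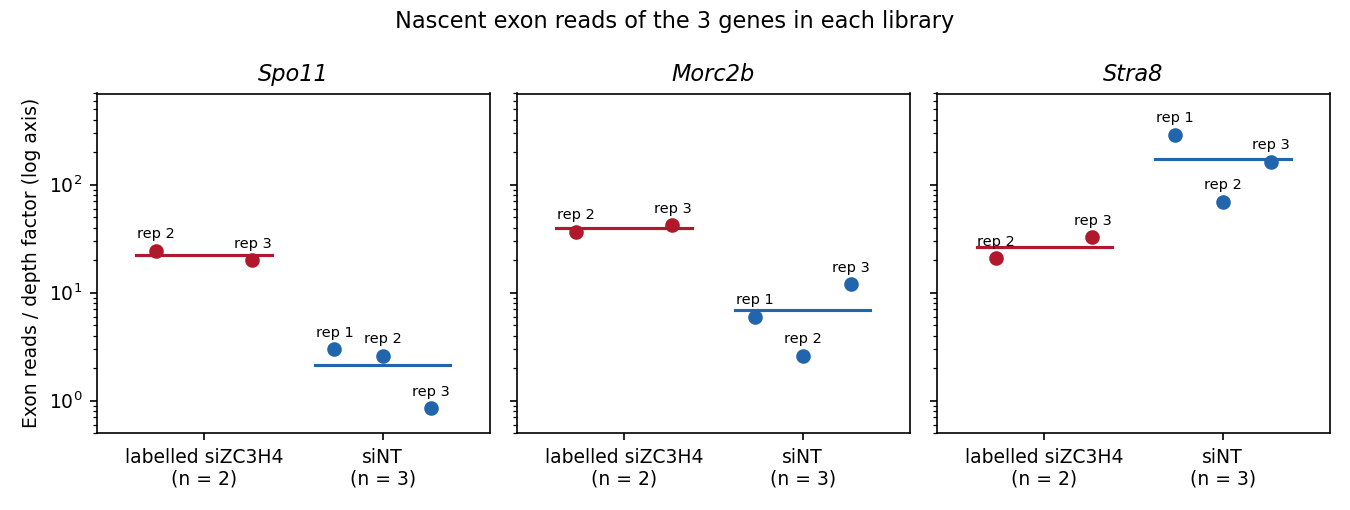
Depth-normalised exon reads of Spo11, Morc2b and Stra8 in each library, with libraries labelled siZC3H4 (n = 2) left of siNT (n = 3), points for libraries and bars for group means. Spo11 and Morc2b sit higher in both siZC3H4 libraries, and Stra8 sits lower there while its siNT values run from 69.6 to 291.

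Levels of different genes were compared as reads per kb of transcript. Per kb, Spo11 had 14.1 ± 1.91 in siZC3H4 and 1.37 ± 0.725 in siNT. Morc2b had 11.0 ± 1.04 per kb in siZC3H4 and 1.91 ± 1.32 in siNT. Stra8 had 21.1 ± 6.44 per kb in siZC3H4 and 138 ± 87.6 in siNT. By group mean all 3 were below the median gene of the table, which stood at 185 per kb in siZC3H4 and 177 in siNT. Stra8 in siNT replicate 1, with 229 per kb, was above that siNT median.

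The order of levels in siZC3H4 was Stra8, Spo11 and Morc2b, and in siNT it was Stra8, Morc2b and Spo11. In siZC3H4 Stra8 had 16.5 and 25.6 reads per kb, Spo11 15.4 and 12.7, and Morc2b 10.3 and 11.7, so neighbours in that order lay close together. In siNT Stra8 had 229, 54.8 and 129 reads per kb, well above Spo11 with 1.90, 1.65 and 0.541 and Morc2b with 1.67, 0.728 and 3.33, and the values of Spo11 and Morc2b overlapped. The mean level of Stra8 was 1.50 times that of Spo11 in siZC3H4 and 101 times in siNT. By level per kb, Spo11 stood at percentile 9.99 of all genes in siZC3H4 and 1.71 in siNT. Morc2b stood at percentile 8.29 in siZC3H4 and 2.46 in siNT, and Stra8 at 13.4 in siZC3H4 and 43.9 in siNT.

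The nearest counted genes on each side were read to see whether the members moved with their surroundings. No counted gene overlapped a member. Of the 18 neighbours, 3 on each side of each member, 0 rose and 0 fell in limma, as in edgeR and DESeq2, against a background of 2.22% and 0.144%. Of these, 2 had an unadjusted p under 0.05 in limma, Pmepa1 and Agbl3, both higher in siZC3H4, as were 11.0% of all genes tested at that p. Log2 differences ran from -0.69 to 1.50 with a median of -0.04.

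Beside Spo11, Rae1, which encodes an mRNA export factor, starts 6.60 kb downstream on the same strand. Rae1 had 3513 and 2837 reads in siZC3H4, against 3038, 3160 and 2612 in siNT, with overlapping groups (log2 0.11 ± 0.14 SE, limma adjusted p = 0.810). Rbm38, an RNA-binding protein gene, lay 28.4 kb away (log2 0.06) and Bmp7, which encodes a signalling ligand, 39.5 kb away (log2 -0.09). Pmepa1, a TGF-beta target at 231 kb, had 276 and 301 reads in siZC3H4 and 190, 134 and 233 in siNT (log2 0.67 ± 0.24 SE, limma adjusted p = 0.218). Tfap2c, which encodes a transcription factor of primordial germ cells, lay 421 kb upstream (log2 -0.01), and Fam209 lay 506 kb upstream (log2 -0.69 ± 0.34 SE, limma adjusted p = 0.387).

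Beside Stra8, Wdr91, an endosome gene on the opposite strand 10.1 kb away, had 867 and 884 reads in siZC3H4 and 852, 764 and 809 in siNT (log2 0.12 ± 0.13 SE, limma adjusted p = 0.775). Agbl3, a carboxypeptidase gene on the same strand 135 kb upstream, had 38.5 and 40.2 reads in siZC3H4, against 20, 5.22 and 21.3 in siNT. Agbl3 was thus higher in siZC3H4, opposite to Stra8, without passing limma's threshold (log2 1.50 ± 0.55 SE, limma adjusted p = 0.224). On the other side, Cnot4 at 82.7 kb had a log2 difference of -0.03 and Nup205, a nuclear pore gene at 238 kb, one of -0.09.

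The counted neighbours of Morc2b lay 100 to 194 kb away, and 5 of the 6 were zinc finger genes. Their log2 differences were -0.26 for Zfp955a, -0.13 for Zfp952, -0.37 for Zfp955b, -0.07 for Zfp472 and -0.05 for Zfp81. Cyp4f13, a cytochrome P450 gene at 188 kb, stood at 0.36 (limma adjusted p = 0.351). The RefSeq table also places Gm52538 on the opposite strand 734 bases from Spo11, Gm52288 on the opposite strand 473 bases from Morc2b and Slc23a4 on the opposite strand 5943 bases from Stra8. These were not analysed here, and no source used here gives the strand setting of the counting.

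**Figure D2:**
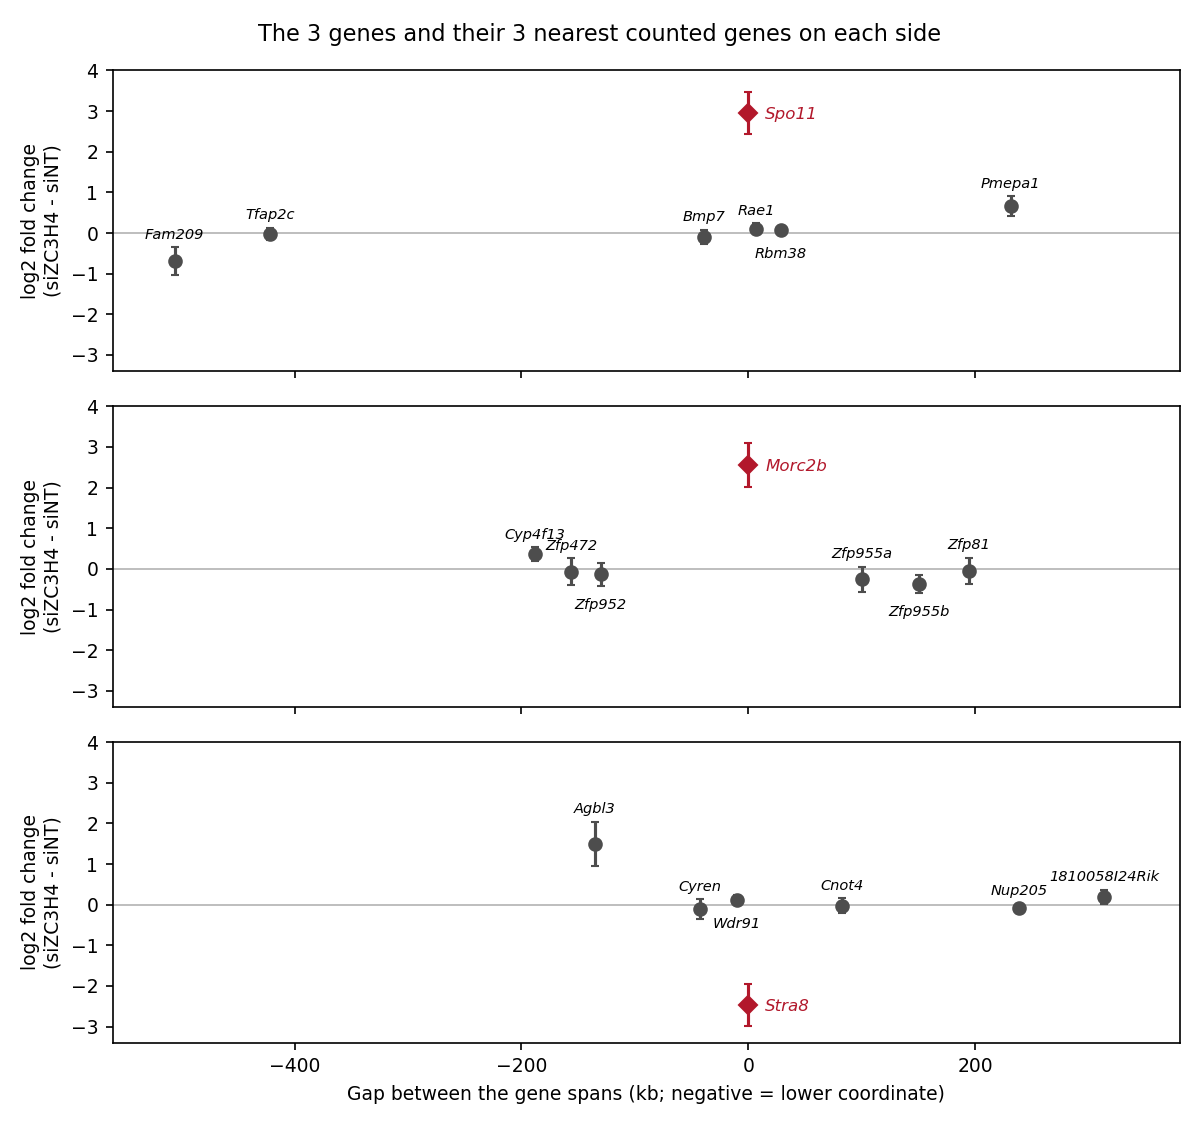
Log2 difference (siZC3H4 minus siNT, bars show SE) of each member, drawn as a diamond at 0, and of its 3 nearest counted genes on each side against the gap between gene spans in kb. The neighbours lie between -0.69 and 1.50, and the members stand at 2.95, 2.55 and -2.47.

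Morc2b has an uaRNA among the 5867 regions of the uaRNA table, and Spo11 and Stra8 have no region there. The Morc2b uaRNA had 24.9 and 30.6 reads in the libraries labelled siZC3H4, against 12, 6.09 and 19.6 in the siNT libraries. The groups did not overlap, and the log2 difference was 1.21 ± 0.45 SE, which is given as a description because it comes from the same contrast. Of 5124 tested uaRNAs 62.1% rose and 1.13% fell, with 73.7% higher and 2.11% lower in both siZC3H4 libraries than in every siNT library, and the median uaRNA had a log2 difference of 0.88. Among the neighbours' uaRNAs, that of Cnot4 had 290 and 258 reads in siZC3H4 and 112, 159 and 128 in siNT (log2 1.05, limma adjusted p = 3.40e-04). The uaRNAs of Zfp472 (log2 0.98) and Cyp4f13 (log2 0.86) also rose, while that of Rae1 (log2 0.80, limma adjusted p = 0.109) and that of Nup205 (log2 -0.39, limma adjusted p = 0.207) did not pass.

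The wider pathways were read from 7 gene lists chosen with earlier results of these data known. The table holds 91 listed genes, of which 86 were tested, and 1 rose and 0 fell, which is 1.16% against a background of 2.22% for genes that rose. An unadjusted limma p under 0.05 was reached by 18 of the 86, 12 of them higher and 6 lower, where over all genes tested 11.0% were higher and 4.39% lower at that p. DESeq2 called 4 of the listed genes risen and 1 fallen (4.30% and 0.777% of all genes tested), and edgeR 1 and 0 (2.76% and 0.152%). The median log2 difference was 0.06, against 0.01 over all genes tested.

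Among the genes of meiotic recombination, in which Spo11 itself acts, 17 of 20 in the table were tested and 1 rose. This was 4930432K21Rik, known as Brme1, which in mouse acts with the recombination protein MEILB2 (encoded by Hsf2bp) and BRCA2. It had 422 and 488 reads in the libraries labelled siZC3H4, against 120, 122 and 137 in the siNT libraries. The 3.58-fold difference (log2 1.84 ± 0.18 SE) had a limma adjusted p of 0.00355, which was 0.0536 without siNT replicate 1 and ran from 2.58e-26 to 0.0536 over the alternatives. The list's median was 0.26, and 14 of the 17 had values above 0. An unadjusted limma p under 0.05 was reached by 8, 7 of them higher and 1 lower (11.0% and 4.39% of all genes). Both siZC3H4 libraries lay above every siNT library for 7 and below every one for 1 (19.5% and 12.8% of all genes). The list was chosen with earlier results of these data known, so these counts are a description.

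Other recombination genes did not pass in limma or edgeR. DESeq2 called 3 of the list risen, 4930432K21Rik, Msh5 and Mlh3, where it called 4.30% of all genes risen. Mlh3, a gene of the list, stood at log2 0.62 (limma adjusted p = 0.0762). Mlh3 and the genes named next were chosen after their values were seen. Prdm9, the histone methyltransferase that places recombination hotspots, had 65.1 and 72.7 reads in siZC3H4, against 32, 36.5 and 32.4 in siNT (log2 1.01, limma adjusted p = 0.0880). Msh5, a crossover factor, had 227 and 180 reads in siZC3H4 and 117, 118 and 112 in siNT (log2 0.80, limma adjusted p = 0.0804). Rec114 and Mei4, which encode partners of SPO11 in break formation, stood at log2 -0.0040 ± 0.19 SE and 0.01 ± 0.30 SE. Dmc1, the recombinase that acts on the broken ends, stood at 0.05 with 217 and 273 reads in siZC3H4 and 180, 218 and 329 in siNT. Hsf2bp, among the genes of the list with most reads, stood at 0.02.

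The genes of the chromosome axis and synapsis divided evenly, with 6 above and 6 below 0 and none past the limma threshold. An unadjusted limma p under 0.05 was reached by 2 of these 12, 1 higher and 1 lower (11.0% and 4.39% of all genes). The calls of edgeR and DESeq2 were 0. Rec8, the meiotic cohesin subunit, had 78.1 and 107 reads in siZC3H4, against 227, 126 and 174 in siNT (log2 -0.89 ± 0.28 SE, limma adjusted p = 0.154). Sycp3, an axis protein gene, had 12.4 and 35.4 reads in siZC3H4 and 17, 5.22 and 58.9 in siNT, a spread within groups larger than the gap between them. Stag3 and Trip13, the genes of the list with most reads, stood at 0.35 and 0.07.

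Genes near Stra8 in its pathway were few. Of the meiotic entry genes, Dazl, an RNA-binding protein that makes germ cells able to respond to retinoic acid, had 154 and 252 reads in siZC3H4, against 359, 262 and 389 in siNT. Dazl was lower in both siZC3H4 libraries than in every siNT library and did not pass (log2 -0.75 ± 0.25 SE, limma adjusted p = 0.187). Ythdc2, which acts with MEIOC, stood at 0.06.

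None of the 12 retinoic acid genes was called by limma or edgeR, DESeq2 called 1 risen (Rarg, where it called 4.30% of all genes risen), and 4 had an unadjusted limma p under 0.05, 3 of them higher and 1 lower (11.0% and 4.39% of all genes). Their median was 0.28, with 9 above 0. Rarg, a retinoic acid receptor gene, had 1129 and 618 reads in siZC3H4, against 543, 542 and 305 in siNT (log2 0.90, limma adjusted p = 0.187). Rara stood at 0.26 and Rxrb at 0.36. Crabp1, which encodes a cytoplasmic retinoic acid binding protein, had 93.4 and 126 reads in siZC3H4 and 195, 163 and 189 in siNT (log2 -0.74, limma adjusted p = 0.125).

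Stra8 ranked the libraries in the order siNT replicate 1, siNT replicate 3, siNT replicate 2, siZC3H4 replicate 3, siZC3H4 replicate 2. Of the tested genes 136 others had this order (1.09%), and in the 7 lists these were Rec8, Crabp1 and Sohlh2. Sohlh2, a germ cell transcription factor gene, had 719 and 792 reads in siZC3H4, against 967, 824 and 910 in siNT (log2 -0.25).

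The other germ cell and piRNA genes had a median of -0.14, with 5 of 15 above 0 and none called by limma or edgeR. At an unadjusted limma p under 0.05, 0 were higher and 1 lower (11.0% and 4.39% of all genes). Tex14, a gene of germ cell bridges, had 1851 and 1798 reads in siZC3H4, against 3448, 2291 and 2531 in siNT (log2 -0.57, limma adjusted p = 0.132), and DESeq2 called it fallen. Ddx4, the germ cell helicase, had 24.9 and 41.1 reads in siZC3H4 and 24, 15.7 and 55.5 in siNT. Tex19.1, a germline gene that embryonic stem cells also express, stood at -0.08.

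The genes for repressors of germline genes had log2 differences close to 0. All 21 were tested, and none was called by limma, edgeR or DESeq2. At an unadjusted limma p under 0.05, 0 were higher and 1 (E2f6) lower (11.0% and 4.39% of all genes). Their median was 0.02 and their range -0.42 to 0.21. Trim28, the co-repressor that recruits SETDB1, stood at 0.06, and Uhrf1, which brings DNMT1 to DNA, at -0.16. Within PRC1.6, Mga stood at 0.07, L3mbtl2 at 0.07 and Pcgf6 at 0.04. E2f6 had 394 and 546 reads in siZC3H4, against 607, 557 and 706 in siNT (log2 -0.42, limma adjusted p = 0.318).

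Morc2b was compared with its family. Morc2a had 3738 and 3658 reads in siZC3H4, against 3257, 3690 and 3736 in siNT (log2 0.06 ± 0.12 SE, limma adjusted p = 0.900). Per kb, the mean level of Morc2a was 59.8 times that of Morc2b in siZC3H4 and 331 times in siNT. Morc1, a germline member, stood at 0.35 (limma adjusted p = 0.286), Morc3 at -0.01 and Morc4 at 0.17. None of the 7 MORC and HUSH genes was called by limma, edgeR or DESeq2, and their median was 0.06. At an unadjusted limma p under 0.05, 1 (Morc1) was higher and 0 lower (11.0% and 4.39% of all genes).

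**Figure D3:**
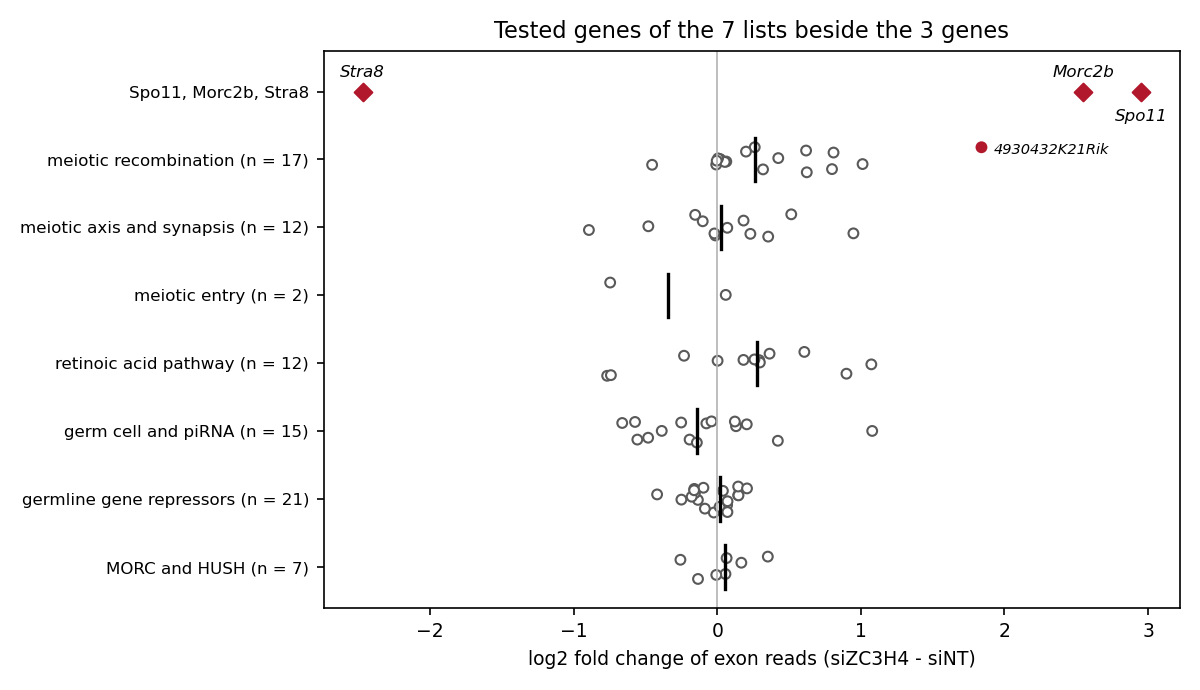
Log2 difference (siZC3H4 minus siNT) of every tested gene in the 7 lists, 1 point per gene, beside Spo11, Morc2b and Stra8. 4930432K21Rik at 1.84 is the 1 listed gene past the limma threshold, and the list medians lie between -0.34 and 0.28.

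Among the uaRNAs of listed genes, 4 of 9 rose for recombination (Psmc3ip, Mlh3, Meiob and Prdm9), 2 of 3 for the axis, 1 of 2 for meiotic entry and 2 of 4 for retinoic acid. They rose for 1 of 3 tested germ cell genes, 11 of 16 repressors and 2 of 2 MORC and HUSH genes, against the background of 62.1%, and 0 fell in limma.

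Cell identity markers were set beside these values. At an unadjusted limma p under 0.05, for which counts follow, 11.0% of all genes tested were higher and 4.39% lower. Of the 13 tested naive pluripotency markers 0 rose and 0 fell in limma (1 higher and 1 lower at an unadjusted p under 0.05). Their summed reads ran from 118300 to 135400 in siZC3H4 and 127200 to 149000 in siNT. The 4 tested primordial germ cell markers were all below 0 with a median of -0.24. None was called, and 0 were higher and 2 lower at an unadjusted limma p under 0.05. Their sums were 7959 to 9153 in siZC3H4 and 10220 to 11220 in siNT, mostly Kit. Kit stood at log2 -0.43 and Dnd1 at -0.44, while Tfap2c at -0.01 and Prdm1 at -0.05 were close to 0 with overlapping groups. The 6 endoderm markers had sums of 5209 to 6248 in siZC3H4 and 7628 to 8944 in siNT. None was called by limma (1 higher and 1 lower at an unadjusted p under 0.05), and DESeq2 called 1 (Lama1) fallen. The endoderm sums are mostly Lama1, which encodes a laminin chain. It had 4934 and 5954 reads in siZC3H4, against 7419, 8789 and 7522 in siNT (log2 -0.54). The other 5 endoderm markers had log2 differences above 0, and the median of the 6 was 0.28. Fibroblast marker sums were 30490 to 31700 in siZC3H4 and 29300 to 34760 in siNT, mostly Fn1. None of 4 tested was called by limma, and 2 had an unadjusted p under 0.05, both higher in siZC3H4. These were Vim (log2 0.40) and Pdgfra (log2 0.79), while 2 of the 4, Fn1 among them, were below 0. Zscan4c, the single counted marker of cells resembling the 2-cell embryo, had 14.2 and 15.3 reads in siZC3H4, against 7, 7.83 and 2.56 in siNT. The part of these markers in the members' values was not tested.

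The genes most like each member over the 5 libraries were found by Pearson r of log2(value + 1), which describes 5 points that share their libraries and depth. For Spo11 they were Galnt6, Gm26571 and Decr2 (r = 0.9976, 0.9974 and 0.9973), with log2 differences of 0.30, 1.21 and 0.15. For Morc2b they were Fhl4, 4930483O08Rik and Ahnak (r = 0.9998, 0.9993 and 0.9971), with log2 differences of 0.37, 1.83 and 0.55. For Stra8 they were Fam83e, Ooep and Phkg1 (r = 0.9975, 0.9969 and 0.9968), with log2 differences of -0.77, -0.18 and -0.38. None of these 9 was called in limma. Of 12481 genes, 336 had r over 0.95 with Spo11, 343 with Morc2b and 110 with Stra8. Between members, r was 0.787 for Spo11 and Morc2b, -0.848 for Spo11 and Stra8, and -0.662 for Stra8 and Morc2b.

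**Figure D4:**
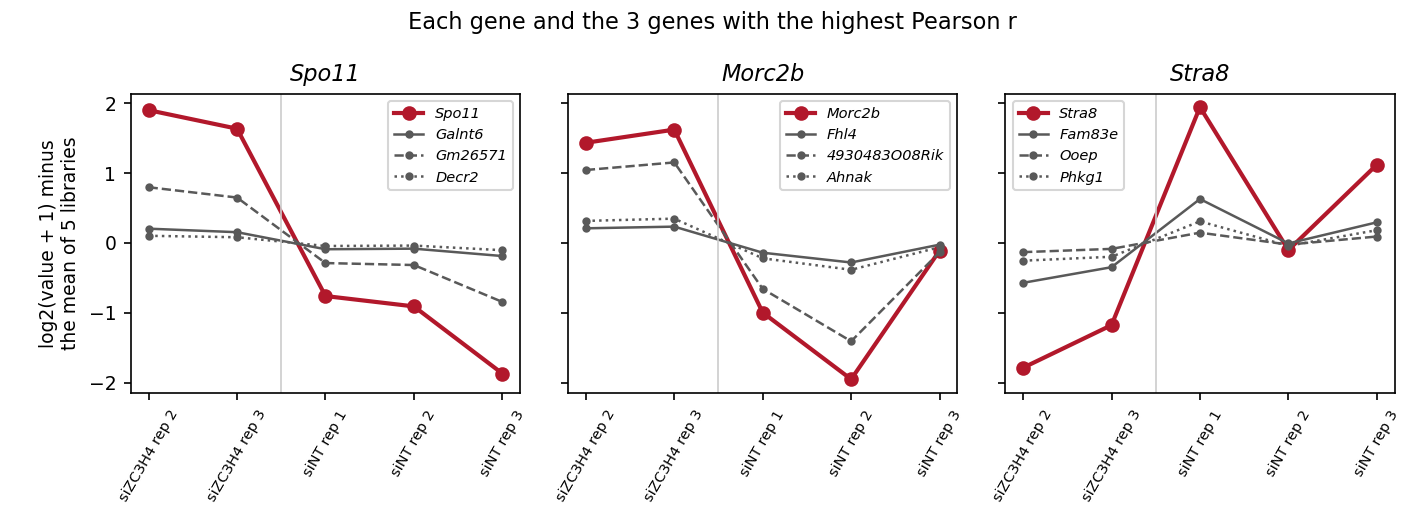
Each member and its 3 most alike genes across the 5 libraries, drawn as log2(value + 1) minus the gene's own mean, with the libraries labelled siZC3H4 left of siNT. The members' lines span a wider range than those of the genes most like them.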

How the data were processed

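TT-seq reads over exons and over uaRNA regions were analysed in 2 siZC3H4 and 3 siNT libraries. The deposited values are signal, depth-normalised reads, which the authors made by dividing reads by a factor per library. These factors were recovered from the values, and every value times its factor came out whole within 0.01 reads. Per the submitters' processing notes, cutadapt 1.14, STAR, featureCounts and DESeq2 were used, with the mm10 genome. No source used here gives their roles or the strand setting.

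The log2(value + 1) of features with a mean of at least 10 was tested with limma 3.58.1 (trend, R 4.3.3) over 12482 genes and 5124 uaRNAs, with Benjamini-Hochberg adjustment at 0.05 and no block. Other scalings, pseudocounts, no filter, edgeR 4.0.16 and DESeq2 1.42.0 on recovered reads, a replicate block and leaving out each library were tried. The limma test was checked on simulated data. Exon depth ran from 14840637 to 26548710 reads and uaRNA depth from 996927 to 2648683. Replicate libraries differed by more than counting noise, so none was counted as a duplicate.

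The members and lists were chosen with earlier results of these data known. Genes named were the members, the 3 nearest counted genes on each side, the 3 most alike genes, and of each list the genes called and the 2 with most reads. Others are said to be chosen after their values were seen, as were Rec8, Sycp3, Rarg, Crabp1, Ddx4, Mga, L3mbtl2, Pcgf6, E2f6, Morc1, Morc4, Dnd1 and Prdm1. Promoter sequences came from the RefSeq table of GRCm38. The tagged-clone samples were left out, and some genes that the rule covers are not reported here.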

Additional observations from a re-analysis of the deposited data

How the results depend on the processing

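Spo11, Morc2b and Stra8 kept their sign under all 14 alternatives. This is no support for them, because the same libraries chose these genes and their groups do not overlap. The log2 difference of Spo11 was 1.94 with a pseudocount of 5. Counts of called genes moved far more. DESeq2 called 537 risen and 97 fallen, with 4 listed genes risen and 1 fallen. Without the filter on low values limma called 38 and 0, and with median-of-ratios scaling 29 fell. Leaving out each library gave 2 to 676 risen and 0 to 138 fallen genes, 0 to 2 risen neighbours, and 0 to 5 risen and 0 to 1 fallen listed genes. The risen and fallen counts were 2 and 0 when siNT replicate 1 was left out and 676 and 138 when siNT replicate 3 was. They were 10 and 0 when siZC3H4 replicate 2 was left out and 80 and 3 when siZC3H4 replicate 3 was. A replicate block in the fit gave 1530 risen and 830 fallen genes, with 2 neighbours risen and 2 fallen and 11 listed genes risen and 7 fallen. Same-numbered libraries deviated together from their group means (r = 0.528 for replicate 2 and 0.618 for replicate 3). With 2 siZC3H4 libraries these deviations are mirror images, so both values rest on the same difference between siZC3H4 libraries. With 2 pairs the libraries share only a number, and siNT replicate 1 has no partner. The cause of these moves was not tested. Depth limits Spo11 most, with 7 reads over the siNT libraries, and fitted folds of such low genes shrink as the pseudocount grows. A fit that leaves 1 siZC3H4 library assumes that it varies like the siNT libraries.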
